A study of Mus musculus with 6 samples.

Results

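The genes described here are 10 members of bone morphogenetic protein (BMP) signaling and its ID target genes: the ligand Bmp4, the receptors Bmpr1a and Bmpr2, the signal-carrying SMADs Smad1 and Smad5, the inhibitory SMAD Smad6, and Id1, Id2, Id3 and Id4. They were chosen by name, with earlier results of these data known, and each matched 1 of the 34745 gene rows of the count files. RNA was sequenced from the 889 cell line, a murine lung cancer line of the C57BL/6 strain, in 3 libraries of cells with Cas9 and a control sgRNA (sg-con) and 3 libraries of cells with Cas9 and an sgRNA against kiaa1522 (sg-kiaa1522). All 6 libraries thus share the line and lentiviral delivery of Cas9, and the comparison asks which transcripts differ when kiaa1522 is targeted. The methods name a different plasmid for the control sgRNA than for the kiaa1522 sgRNAs, so plasmid and target cannot be told apart. Transduced cells were isolated with puromycin or by sorting, and which was used for these cells is not said. The sources used here do not say which sgRNA the sequenced cells carried, whether they were 1 clone or a pool, or whether the libraries came from separate cultures, so the p-values measure only the spread between these libraries, which may be technical. The cells were kept in medium with serum.

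BMPs are secreted ligands that bind a pair of type I receptors (such as Bmpr1a) and a pair of type II receptors (such as Bmpr2) on the cell surface. The active receptor phosphorylates Smad1, Smad5 and Smad9, which join Smad4, enter the nucleus and switch on target genes, and the ID genes are the best known of these. ID proteins have a helix-loop-helix but no DNA-binding region, so that they hold E proteins such as Tcf3, Tcf4 and Tcf12 away from DNA. Smad6 and Smad7 are themselves targets of the pathway and block it in return. In the lung, Bmp4 is known for its part in the growth and patterning of the epithelium.

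The libraries labelled sg-kiaa1522 had less RNA of the ligand, of both receptors, of the inhibitory SMAD and of Id1 and Id3. Bmp4 fell by 56.4% and Smad6 fell by 52.4%. Id3 fell by 41.2% and Id1 fell by 39.5%, and of the receptors Bmpr2 fell by 34% and Bmpr1a fell by 27.3%. Smad5 rose by 25.6%, Smad1 did not pass the test, and Id2 had a log2 fold change of 0.02 with overlapping groups. Id4 had 1 count in 1 sg-con library and none in the other 5 libraries, and was not tested.

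Total counts lay between 16581000 and 18559660 in the sg-con libraries and between 12220001 and 18609376 in the libraries labelled sg-kiaa1522. The targeted gene, listed as C77080, had 127 ± 2.93 CPM (counts scaled to library size with TMM factors) in sg-con and 210 ± 6.38 CPM in the libraries labelled sg-kiaa1522 (SD, n = 3). Its mRNA was thus higher in the libraries labelled as targeted. Counts of mRNA do not show whether the gene was edited or its protein lost, so they do not check the labels. Every direction below is for libraries named by their labels. Of the epithelial markers, Krt8, Krt18, Krt19 and Cdh1 were detected and Epcam had no count in any library, and of the lung epithelial markers Nkx2-1 had between 132 and 1096 counts. The leukocyte markers Adgre1 and Cd3e had no count, and the 4 endothelial markers together reached at most 1.66 CPM in any library.

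RefSeq promoter windows on GRCm38.p6 were matched for 9 of the 10 members, with Id1 not among them, and 4 are shown because they belong to members that fell (Smad6, Bmp4 and Id3) and to the ID gene that did not (Id2). Each runs 5′ to 3′ on the strand of its gene, from 250 bases before the RefSeq start of transcription to 50 after it. For Id3 and Id2 that start lies inside the span of the gene given below, so their windows lie wholly within that span. Capitals mark GGCGCC, a GC-rich sequence that SMADs of the BMP branch bind, and GTCT or its reverse complement AGAC, the short SMAD box. The windows are chr9:64022010-64022309 on the minus strand for Smad6, chr14:46390620-46390919 on the minus strand for Bmp4, chr4:136143572-136143871 on the plus strand for Id3 and chr12:25096043-25096342 on the minus strand for Id2.
Smad6: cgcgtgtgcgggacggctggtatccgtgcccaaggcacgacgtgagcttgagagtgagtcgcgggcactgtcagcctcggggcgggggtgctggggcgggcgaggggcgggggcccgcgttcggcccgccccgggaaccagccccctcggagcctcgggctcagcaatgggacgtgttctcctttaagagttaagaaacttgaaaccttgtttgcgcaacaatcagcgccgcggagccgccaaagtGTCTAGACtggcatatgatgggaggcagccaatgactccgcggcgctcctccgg
Bmp4: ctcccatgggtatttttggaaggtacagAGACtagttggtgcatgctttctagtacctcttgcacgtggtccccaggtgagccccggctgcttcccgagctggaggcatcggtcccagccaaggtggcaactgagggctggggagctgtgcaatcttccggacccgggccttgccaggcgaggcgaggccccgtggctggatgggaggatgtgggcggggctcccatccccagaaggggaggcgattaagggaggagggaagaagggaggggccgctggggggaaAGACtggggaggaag
Id3: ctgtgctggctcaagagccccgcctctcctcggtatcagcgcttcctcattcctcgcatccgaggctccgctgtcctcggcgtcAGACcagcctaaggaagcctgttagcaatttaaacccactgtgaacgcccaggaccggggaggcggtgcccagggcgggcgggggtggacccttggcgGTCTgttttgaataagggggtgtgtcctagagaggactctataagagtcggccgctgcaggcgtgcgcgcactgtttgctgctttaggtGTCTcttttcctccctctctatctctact
Id2: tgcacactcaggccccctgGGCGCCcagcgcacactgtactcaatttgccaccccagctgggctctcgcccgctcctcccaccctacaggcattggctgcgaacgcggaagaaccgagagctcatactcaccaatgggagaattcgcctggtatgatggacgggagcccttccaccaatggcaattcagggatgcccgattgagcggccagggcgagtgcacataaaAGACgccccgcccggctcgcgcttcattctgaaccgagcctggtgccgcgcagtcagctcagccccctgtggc

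In the Smad6 window both boxes abut as GTCTAGAC, the palindromic SMAD-binding element, starting 4 bases before the start of transcription. These 8 letters occur in 70 of 32851 RefSeq windows of the same length (0.213%), and in no other of the members' windows. GGCGCC was found in the windows of Id2, Id4, Bmpr1a, Bmpr2 and Smad5, and in 11.9% of all windows. The Id2 match starts 231 bases before the start of transcription. A composite of GGCGCC, 5 bases of any kind and GTCT was in none of the members' windows and in 0.0731% of all windows, while GTCT on either strand was in 88% of them. Among the windows of the members that fell, GGCGCC was thus in those of Bmpr1a and Bmpr2 and not in those of Bmp4, Smad6 and Id3. Both strands were searched for each motif, and GTCT lies within GTCTAGAC and the composite. A match describes these letters only, and the windows hold between 59.3% and 79.3% G and C.

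Bmp4 (ENSMUSG00000021835, chromosome 14 from 46383520 to 46390669 on GRCm38), the ligand, had 3791, 4323 and 4120 counts in the sg-con libraries and 1287, 1736 and 1762 in those labelled sg-kiaa1522. Normalized, these were 218, 233 and 247 CPM against 106, 94.7 and 104 CPM. Every library labelled sg-kiaa1522 was below every sg-con library, and the groups were far apart against the spread within either of them. The log2 fold change was -1.20 (SE 0.0751, 95% interval -1.37 to -1.02, edgeR adjusted p = 4.3e-05), a fall of 2.29-fold. Among all tested genes 2.78% had a lower log2 fold change.

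Both receptors fell, with 95% intervals nearer to 0 than that of the ligand. Bmpr1a (ENSMUSG00000021796, chromosome 14 from 34410734 to 34503341), a type I receptor for BMP2 and BMP4, had 149, 129 and 128 CPM in sg-con and 90.4, 103 and 101 CPM in the libraries labelled sg-kiaa1522. Bmpr2 (ENSMUSG00000067336, chromosome 1 from 59763400 to 59879014), the type II receptor that activates it, had 176, 143 and 140 CPM against 97.7, 101 and 104 CPM. Neither gene's groups overlapped, and in both the first sg-con library stood above the others. The log2 fold change was -0.46 for Bmpr1a (SE 0.0862, 95% interval -0.66 to -0.26, edgeR adjusted p = 0.0034) and -0.60 for Bmpr2 (SE 0.0963, 95% interval -0.82 to -0.37, edgeR adjusted p = 0.0017).

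Bmp4 and Bmpr1a lie on chromosome 14, where the median over 343 tested genes was -0.38 on the log2 scale, against -0.0067 over all tested genes. With the median of its chromosome removed, Bmp4 stood at -0.82 and Bmpr1a at -0.08. The median on chromosome 1 was -0.21, and Bmpr2 stood at -0.39 with it removed. What part the chromosome has in these differences was not tested. Bmp4 shares 89 exon bases and Bmpr1a 290 with a gene on the opposite strand each, which had at most 1 count in any library.

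Neither of the signal-carrying SMADs passed the test as lower. Smad1 (ENSMUSG00000031681, chromosome 8 from 79338395 to 79399518) had 30.5, 30.3 and 28.4 CPM in sg-con and 37.4, 33.4 and 32.3 CPM in the libraries labelled sg-kiaa1522. Its groups did not overlap, yet the log2 fold change of 0.21 did not pass the test over all genes (SE 0.0882, edgeR adjusted p = 0.083). Smad5 (ENSMUSG00000021540, chromosome 13 from 56703010 to 56742377), its close relative, had 36.2, 39.9 and 36.5 CPM against 44.7, 45.7 and 51 CPM. It rose by 0.33 on the log2 scale (SE 0.0876, edgeR adjusted p = 0.016). Without replicate 3 of the libraries labelled sg-kiaa1522, the highest of them, Smad5 was at 0.27 (edgeR adjusted p = 0.062) and did not pass.

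Smad6 (ENSMUSG00000036867, chromosome 9 from 63953076 to 64022059), whose protein blocks BMP receptors and Smad1, moved the other way. It had 1024, 1240 and 1162 counts in sg-con and 378, 558 and 532 in the libraries labelled sg-kiaa1522, or 58.8, 66.9 and 69.7 CPM against 31.1, 30.4 and 31.3 CPM. The latter libraries differed among themselves by a coefficient of variation of 1.52%, the smallest of the 9 tested members in either group. The log2 fold change was -1.07 (SE 0.0886, 95% interval -1.28 to -0.87, edgeR adjusted p = 1.1e-04), and 3.57% of all tested genes had a lower one. This is the member whose window above holds the palindromic SMAD-binding element, and whether that element has a part in the fall was not tested.

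**Figure D1:**
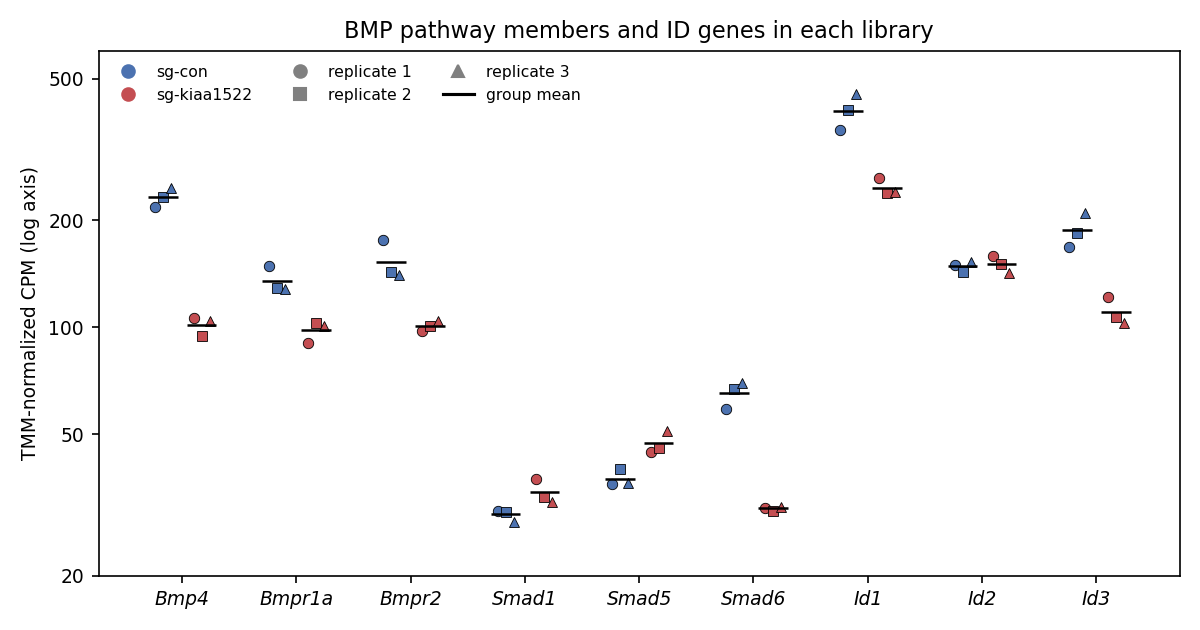
TMM-normalized CPM on a log axis for the 9 tested members, with 1 point per library, the shape of the point giving the replicate number and a line at the mean of each group. The groups are apart for every member drawn except Id2, and Smad1 and Smad5 are the members with the libraries labelled sg-kiaa1522 on top.

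Of the 4 ID genes, 2 fell, 1 did not pass the test and 1 was not tested, where 26.3% of all tested genes fell. Id1 (ENSMUSG00000042745, chromosome 2 from 152736251 to 152737410), the classical BMP target, had 6280, 7602 and 7538 counts in sg-con and 3188, 4355 and 4074 in the libraries labelled sg-kiaa1522, which is 360, 410 and 452 CPM against 263, 238 and 240 CPM. Its highest library labelled sg-kiaa1522 was below its lowest sg-con library. The log2 fold change was -0.72 (SE 0.0920, edgeR adjusted p = 6.1e-04). Id3 (ENSMUSG00000007872, chromosome 4 from 136143497 to 136145755), which like Id1 keeps progenitor cells from differentiating, had 168, 184 and 210 CPM against 122, 107 and 103 CPM. It fell by 0.77 on the log2 scale (SE 0.103, edgeR adjusted p = 7.6e-04), and its groups did not overlap either.

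Id2 (ENSMUSG00000020644, chromosome 12 from 25093799 to 25097140), an ID gene known as a marker of the distal tip of the lung epithelium, had 150, 143 and 153 CPM in sg-con and 159, 151 and 142 CPM in the libraries labelled sg-kiaa1522. The groups overlapped over nearly their whole range. The log2 fold change was 0.02, with a 95% interval from -0.13 to 0.17 (edgeR adjusted p = 0.83), so that a change of the size seen in Id1 or Id3 lies outside the interval. Id4 (ENSMUSG00000021379, chromosome 13 from 48261228 to 48266026) had its single count in sg-con replicate 1, where 3 counts would be 0.172 CPM. The 4 genes together held between 678.6 and 815.2 CPM in sg-con and between 484.6 and 543.1 CPM in the libraries labelled sg-kiaa1522. Id1 made up between 53.1% and 55.6% of that sum in sg-con and between 48% and 49.5% in the others.

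Markers of epithelial cells were lower in the same libraries as Id1 and Id3. Of the 5 epithelial markers 4 were tested and all 4 were lower, beside 26.3% of all tested genes, and their summed level lay between 3815 and 4572 CPM in sg-con and between 3219 and 3492 CPM in the libraries labelled sg-kiaa1522. Cdh1, the E-cadherin gene, had a log2 fold change of -1.45 (edgeR adjusted p = 5.1e-05) and Krt19 one of -0.73 (edgeR adjusted p = 0.0012), while Krt18 was at the threshold with -0.19 (edgeR adjusted p = 0.05) and overlapping groups, and kept its call without sg-con replicate 1 but not without any other library, nor with the likelihood ratio test, RLE factors or either looser filter (adjusted p between 0.055 and 0.073). The 6 fibroblast markers summed to between 467 and 486 CPM in sg-con and between 167 and 198 CPM in the others, most of it Col1a2, with Col3a1, Pdgfra and Dcn at 7 counts or fewer in each library. The lung epithelial markers summed to between 42.7 and 95.8 CPM in sg-con and between 24.6 and 61 CPM in the others, with overlapping groups. Among them Nkx2-1 differed within each group, with 55.7, 59.1 and 13.6 CPM in sg-con and 10.9, 9.49 and 39.5 CPM in the others, and Sftpb fell by 0.67 without overlap (edgeR adjusted p = 0.012). The leukocyte markers summed to between 2.26 and 5.63 CPM in sg-con and between 11.1 and 13.8 CPM in the others, a difference that came from Cd68 alone (1.2 against 11.3 CPM in the mean). Lyz2 had 63, 18 and 37 counts in sg-con and 11, 17 and 16 in the others, and Ptprc had at most 14 counts in a library. The part of these markers in the members' differences was not tested, and in bulk RNA fewer cells of a type and less RNA per cell cannot be told apart.

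Counted over the members, 6 of the 9 tested were lower at an adjusted p of at most 0.05 in edgeR's test over all genes (Bmp4, Bmpr1a, Bmpr2, Smad6, Id1 and Id3) and 1 was higher (Smad5). Changes at this level were common in these libraries, with 26.3% of the 10046 tested genes lower and 26.3% higher. With a change of 1 or more on the log2 scale as well, Bmp4 and Smad6 were lower, against 4.34% of all tested genes, and no member was higher, against 2.74%. Without overlap of the groups, the libraries labelled sg-kiaa1522 lay below sg-con in 6 members, against 31.1% of all tested genes. They lay above sg-con in 2, against 30.6%, namely Smad5 and Smad1, of which Smad1 did not pass the test. The median log2 fold change of the members was -0.60. Because the members were chosen with earlier results of these data known, these counts and shares are a description only.

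**Figure D2:**
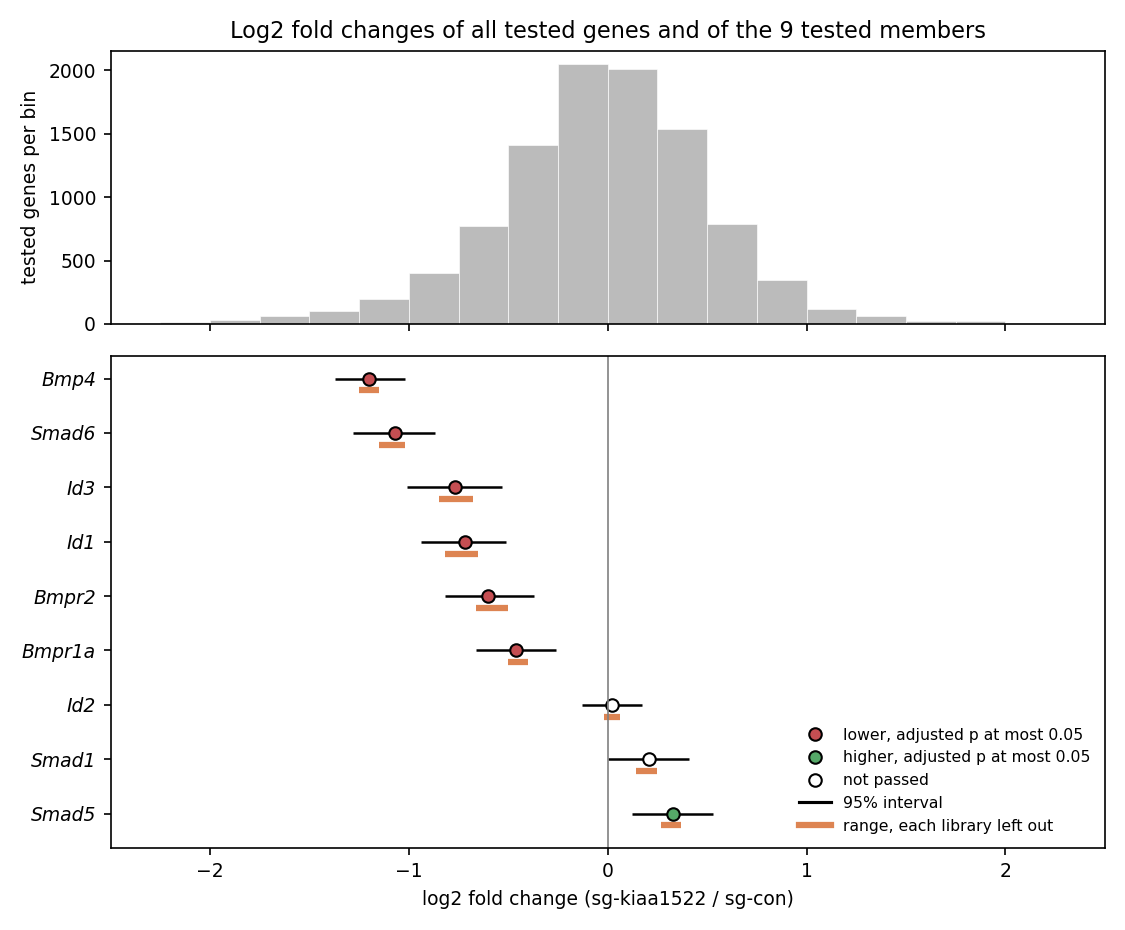
The upper panel counts all 10046 tested genes by log2 fold change (sg-kiaa1522 over sg-con) in bins of 0.25, with genes beyond the axis not drawn, and the lower panel gives the 9 tested members with their 95% interval (black) and the range over the fits that lack 1 library (orange). Bmp4 at -1.20 and Smad6 at -1.07 lie farthest from 0, and the interval of Id2 spans it.

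The members differed in how their libraries were ordered. In sg-con, Bmp4, Smad6, Id1 and Id3 were each lowest in replicate 1 and highest in replicate 3, whereas Bmpr1a, Bmpr2 and Smad1 were highest in replicate 1 and lowest in replicate 3. The epithelial markers Krt8, Krt18, Krt19 and Cdh1 were also lowest in sg-con replicate 1 and highest in replicate 3, so the order was not particular to these members, and Smad7 had the reverse order. With 3 libraries this is a description only. In the libraries labelled sg-kiaa1522 the spread was smaller for 6 of the 9 tested members, among them Id1 (coefficient of variation 5.61% against 11.3% in sg-con), Bmpr2 (3.24% against 13%) and Smad6 (1.52% against 8.73%). It was larger there for the others, Id2 (5.6% against 3.21%), Smad1 (7.85% against 3.95%) and Smad5 (7.15% against 5.47%).

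Levels scaled by exon length (TPM) placed Id1 first in both groups, at 900 ± 85.5 TPM in sg-con and 582 ± 32.5 TPM in the libraries labelled sg-kiaa1522 (SD, n = 3). In sg-con it was followed by Id3 (268 ± 26.6 TPM), Bmp4 (265 ± 12.3), Id2 (156 ± 6.96), Bmpr1a (54.7 ± 6.03), Smad6 (52.1 ± 3.5), Bmpr2 (21.9 ± 3.37), Smad5 (13 ± 0.576) and Smad1 (12.2 ± 0.672). Id3 and Bmp4, Bmpr1a and Smad6, and Smad5 and Smad1 overlapped as neighbours in this order. In the libraries labelled sg-kiaa1522, Id2 (169 ± 7.93 TPM) and Id3 (168 ± 14.4 TPM) stood level as neighbours and above Bmp4 (124 ± 8.53 TPM). The receptor Bmpr2 (15.4 ± 0.685 TPM) came between Smad5 (17.4 ± 1.5 TPM) and Smad1 (15 ± 1.1 TPM), overlapping with Smad1.

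**Figure D3:**
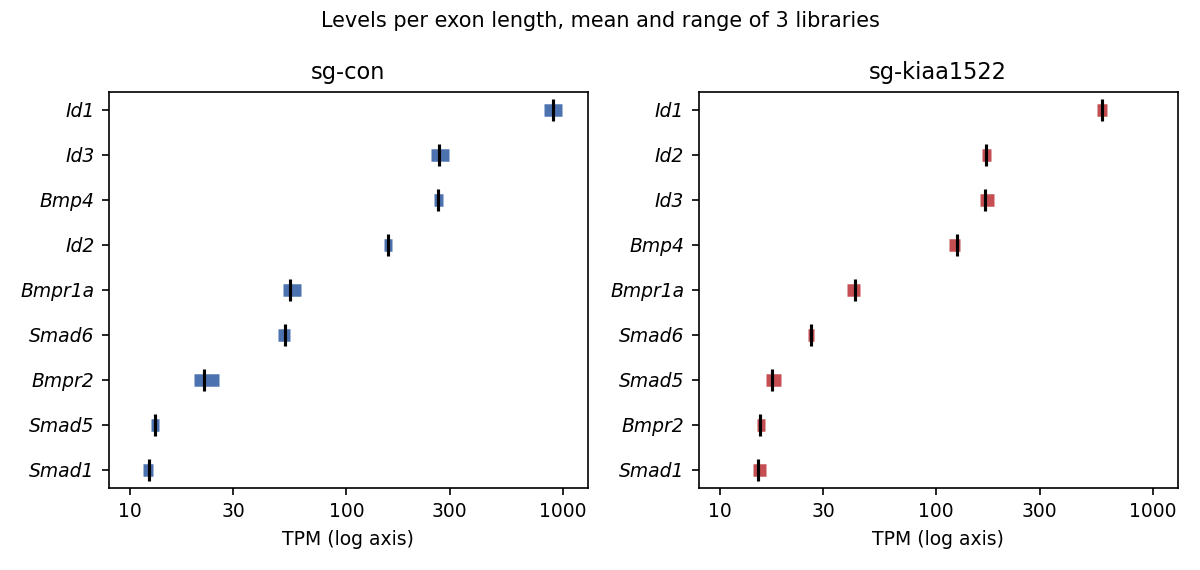
TPM on a log axis for the 9 detected members in each group, ordered by mean, with a bar from the lowest to the highest of 3 libraries and a tick at the mean. Id1 leads in both groups, and Bmp4 moves from 265 TPM beside Id3 to 124 TPM below Id2 and Id3.

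The rest of the pathway was read from 6 lists of 66 genes, of which 31 had enough counts to be tested. At an adjusted p of at most 0.05 in edgeR's test 14 of the 31 were lower and 11 higher, where 26.3% of all tested genes were lower and 26.3% higher. With a change of 1 or more on the log2 scale 4 were lower and 3 higher, where the shares of all tested genes were 4.34% and 2.74%. The median log2 fold change was -0.28. Of the 35 genes not tested, 19 had no count in any library.

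Among 12 further BMP ligands, Bmp5 was the one tested. Bmp5, which signals through the same SMADs as Bmp4, had 167, 135 and 137 CPM in sg-con and 48.5, 45.3 and 46.4 CPM in the libraries labelled sg-kiaa1522. Its groups were far apart, and the log2 fold change of -1.65 (SE 0.0975, edgeR adjusted p = 3.3e-05) compares with -1.20 for Bmp4. Bmp2, Bmp7, Bmp8b, Bmp10, Gdf2 and Gdf7 had no count in any library, so that Bmp4 and Bmp5 were the BMP ligands with more than 11 counts in a library.

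Of the 4 other receptors and co-receptors tested, 3 were higher, beside 26.3% of all tested genes. Acvr2a, a type II receptor that BMPs share with activins, had 29.3, 24.3 and 24.8 CPM in sg-con and 51.7, 56 and 61.5 CPM in the libraries labelled sg-kiaa1522, a log2 fold change of 1.11 (SE 0.108, edgeR adjusted p = 2.0e-04). Rgmb, a BMP co-receptor, rose by 0.82 (edgeR adjusted p = 1.9e-04). Acvr1, a type I receptor, rose by 0.24 (edgeR adjusted p = 0.043), a call that was lost with any one of the 6 libraries left out (0.17 to 0.28). Neo1, the most abundant of the list in CPM, was at 254 ± 11.8 and 255 ± 8.86 CPM (SD, n = 3) with a log2 fold change of 0.01 (95% interval -0.14 to 0.15, edgeR adjusted p = 0.95). The list has 10 genes, and none of the 4 tested was lower. Eng, a co-receptor under the filter on low counts, had 55, 84 and 61 counts in sg-con and 18, 25 and 33 in the others, without overlap. Other untested genes of the list lay the other way without overlap. Tgfbr3 had 0, 2 and 1 counts against 23, 43 and 44, and Rgma had 2, 0 and 0 against 6, 4 and 5. Acvr2b had 3.5, 3.61 and 3.12 CPM against 5.52, 5.78 and 7.54 CPM.

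Extracellular antagonists and modulators changed in both directions, with 6 of 9 tested genes lower and 2 higher, beside 26.3% of all tested genes in each direction. Of the 6, Nbl1 (-0.53, edgeR adjusted p = 0.024) lost its call without sg-con replicate 2 (-0.43, edgeR adjusted p = 0.081), without replicate 2 of the libraries labelled sg-kiaa1522 (-0.40, edgeR adjusted p = 0.073) or without their replicate 3 (-0.57, edgeR adjusted p = 0.055). Fst, which codes for follistatin and traps activins and some BMPs, had 10.1, 10.6 and 8.7 CPM in sg-con and 35.4, 31.8 and 34.8 CPM in the libraries labelled sg-kiaa1522, a log2 fold change of 1.79 (SE 0.109, edgeR adjusted p = 3.9e-05). The follistatin relative Fstl1, the most abundant of the list in CPM, had 371, 347 and 363 CPM against 185, 167 and 182 CPM and fell by 1.02 (edgeR adjusted p = 4.3e-05). Smoc1 and Smoc2, matrix proteins known to dampen BMP signaling, changed in opposite directions. Smoc1 had 3, 4 and 2 counts in sg-con and 235, 302 and 298 in the libraries labelled sg-kiaa1522, and Smoc2 had 447, 480 and 452 against 32, 29 and 22. Scaled to library size, the ratio of summed Smoc1 counts was 103, with an exact 95% counting interval from 53.9 to 226, and Smoc2 had a log2 fold change of -3.87 (SE 0.214, edgeR adjusted p = 2.7e-05). Chrd, the gene of the BMP trap chordin, fell by 0.83, and Bmp1, the protease that cleaves chordin, by 0.76 (edgeR adjusted p = 0.0023 and 3.3e-04). Bmp1 lies on chromosome 14, where the median over tested genes was -0.38. Noggin (Nog) had no count, and Grem1 had 2 in all. Bmper, under the filter on low counts, had 62, 61 and 60 counts in sg-con and 6, 9 and 3 in the others, without overlap. No untested gene of this list lay the other way without overlap.

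Inside the cell, Smad7 fell alongside Smad6. Smad7 had 155, 144 and 127 CPM in sg-con and 75.5, 79.3 and 71.1 CPM in the libraries labelled sg-kiaa1522, with a log2 fold change of -0.92 (SE 0.0885, edgeR adjusted p = 1.9e-04). Smad4, the shared partner of the receptor-activated SMADs, rose by 0.47 (edgeR adjusted p = 0.0033), and Smad9, the third SMAD of the BMP branch, fell by 0.53 (edgeR adjusted p = 0.025), a call lost without sg-con replicate 1 (-0.41, edgeR adjusted p = 0.053) or without replicate 2 of the libraries labelled sg-kiaa1522 (-0.41, edgeR adjusted p = 0.085). Smurf2, a ubiquitin ligase that removes SMADs and receptors, rose by 0.70 (edgeR adjusted p = 0.0021), while its relative Smurf1 was at -0.04 (95% interval -0.16 to 0.09, edgeR adjusted p = 0.59). Ski, a corepressor of SMADs, fell by 0.65 (edgeR adjusted p = 1.9e-04). Ctdsp2, a SMAD phosphatase with the highest mean CPM of the list over all 6 libraries, had 291, 303 and 281 CPM in sg-con and 252, 245 and 52.4 CPM in the others. Its log2 fold change of -0.67 (edgeR adjusted p = 0.28) rested on the last of these libraries, and was -0.23 without it (edgeR adjusted p = 0.046). In this list 4 of 11 tested genes were lower and 3 higher, near the 26.3% of all tested genes in each direction.

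Target genes other than the ID genes changed in both directions. Atoh8, a direct target of BMP-activated SMADs in other cells, had 291, 373 and 438 CPM in sg-con and 144, 139 and 133 CPM in the libraries labelled sg-kiaa1522, a log2 fold change of -1.41 (SE 0.139, edgeR adjusted p = 2.1e-04). Hes1, which Notch as well as BMP can induce, fell by 0.70 (edgeR adjusted p = 0.0012). Runx2 rose by 0.24 (edgeR adjusted p = 0.0097). Of 10 such genes 4 were tested, with Smad7 counted here too, and 3 were lower and 1 higher, beside 26.3% of all tested genes in each direction. Msx1, Msx2, Dlx5 and Bambi had no count, and Hey1 had at most 4 counts in sg-con and between 17 and 23 in the others. Dlx3, also not tested, had 51, 59 and 39 counts in sg-con and 68, 85 and 81 in the others, and its CPM did not overlap.

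The partners that ID proteins bind did not move as 1 group. Tcf4 had 52, 57.9 and 39.7 CPM in sg-con and 107, 92 and 93.4 CPM in the libraries labelled sg-kiaa1522, with a log2 fold change of 0.97 (SE 0.141, edgeR adjusted p = 0.0011). Tcf12, the most abundant of the list in CPM, rose by 0.53 (edgeR adjusted p = 0.011), and Tcf3 fell by 0.28 (edgeR adjusted p = 0.020), a call lost without sg-con replicate 2 (-0.23, edgeR adjusted p = 0.080), without replicate 1 of the libraries labelled sg-kiaa1522 (-0.24, edgeR adjusted p = 0.065) or without their replicate 3 (-0.28, edgeR adjusted p = 0.065). Myod1 and Twist1 had no count.

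**Figure D4:**
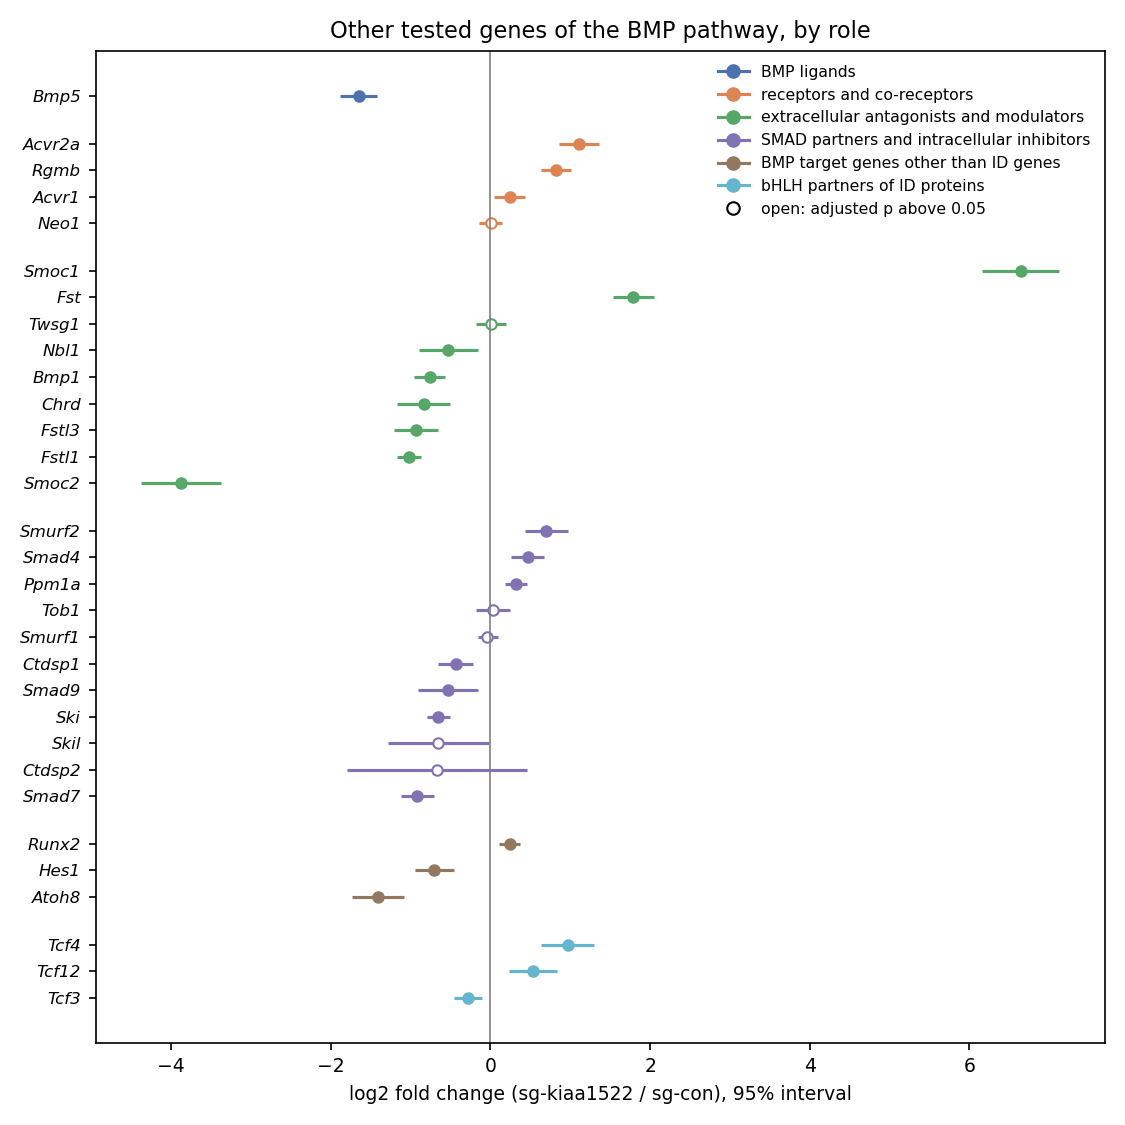
Log2 fold changes (sg-kiaa1522 over sg-con) with 95% intervals for the 31 other tested genes of the BMP pathway, grouped by role, with open points for an adjusted p above 0.05 and Smad7 drawn once. Bmp5 and the inhibitory Smad7 lie to the left with Atoh8, the receptors Acvr2a and Rgmb lie to the right, and Smoc1 and Smoc2 mark both ends of the axis.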

How the data were processed

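RNA of 3 sg-con and 3 sg-kiaa1522 libraries was analysed. The authors deposited raw counts per Ensembl gene, 1 library per file: they trimmed adaptors and removed rRNA reads with Seqtk, mapped to GRCm38 with HISAT2 2.0.4 and counted uniquely mapped fragments with StringTie 1.3.0 (versions as in the submitters' processing notes). The annotation release and the strand setting are not given in the sources used here. Genes with more than 500 counts summed over the 6 libraries (10046 genes, at least 99.5% of each library's counts) were normalized by TMM (factors between 0.989 and 1.01) and tested with the quasi-likelihood F test of edgeR 4.0.16 in R 4.3.3, without covariates, with p-values adjusted by Benjamini and Hochberg over all tested genes. "Rose", "fell", "lower" and "higher" stand for an adjusted p of at most 0.05, and the stricter call adds a change of 1 or more on the log2 scale. Standard errors are the log2 fold change divided by the square root of F, and 95% intervals use the t distribution with the residual and prior degrees of freedom. TPM used the summed exon lengths of GENCODE M21, to which 34344 of 34745 genes were matched, and serves to compare levels between genes. Where a library has 3 counts or fewer, 3 counts are between 0.162 and 0.247 CPM, and intervals from counts cover counting error only. Within a group, libraries differed by a chi-square per degree of freedom of at least 12.3, so none is a copy of another.

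The members and lists were chosen with earlier results of these data known. Named are the 10 members, the targeted gene, list genes past the stricter call, the gene with the highest mean CPM of each list, and Smad7, Smoc1 and Smoc2. The other list genes named were chosen after their values were seen. The alternatives were the likelihood ratio test, the Wald test of DESeq2 1.42.0, RLE factors, library size alone, the edgeR filter filterByExpr, a minimum of 1 count, the replicate number as a block, the median of each chromosome removed (without new p-values), each library left out, and no threshold on the fold change. The fits were also run on simulated counts with the same spread for all genes, a coefficient of variation of 0.127, the common value estimated from these libraries. That run does not cover spreads that differ between genes. Promoter windows came from a RefSeq table for GRCm38.p6.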

Additional observations from a re-analysis of the deposited data

How the results depend on the processing

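Of the members, Bmp4, Bmpr1a, Bmpr2, Smad6, Id1 and Id3 were lower with an adjusted p of at most 0.05 in each of the 13 alternative fits, and none of the 9 tested members turned direction in a call. With each library left out, Bmp4 ranged from -1.25 to -1.15, Smad6 from -1.15 to -1.02, Id3 from -0.85 to -0.68, Id1 from -0.82 to -0.65, Bmpr2 from -0.66 to -0.50, Bmpr1a from -0.50 to -0.40 and Smad1 from 0.14 to 0.25. Id2, which never passed, ranged from -0.02 to 0.06 and changed sign without sg-con replicate 2 and without sg-kiaa1522 replicate 1 (-0.02 in both). Smad5 ranged from 0.27 to 0.37, so that the count of higher members ran from 0 to 1. With the median of each chromosome removed, Id1 stood at -0.87, Id2 at -0.10, Bmp4 at -0.82, Bmpr1a at -0.08 and Bmpr2 at -0.39. The counts of genes past the stricter call moved to 812 lower and 607 higher with filterByExpr and to 941 and 767 with a minimum of 1 count, since more genes were tested (12141 and 18499), and to 2639 and 2638 without the threshold on the fold change. With each library left out they ran from 366 to 456 and from 226 to 338. Of the pathway genes, 4 lower and 3 higher passed the stricter call, against 6 and 5 with filterByExpr, 6 and 6 with a minimum of 1 count, and 14 and 11 without the fold threshold.

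The labels give both groups the replicate numbers 1 to 3, but same-numbered libraries did not deviate together from their group means (correlations across genes -0.214, -0.051 and -0.165). The mean correlation between libraries with different numbers was 0.071. The main fit therefore has no block, though with 3 libraries per group these values cannot show whether same-numbered libraries shared a culture or preparation. With the replicate number as a block, 0 members were higher, since Smad5 had 0.33 with an edgeR adjusted p of 0.055, and over all genes 2111 were lower and 2109 higher at an adjusted p of at most 0.05, against 2639 and 2638. Among the pathway genes named, Runx2 (0.24, edgeR adjusted p = 0.054) and Nbl1 (-0.54, edgeR adjusted p = 0.065) lost their calls with the block, as did Acvr1 (0.24, edgeR adjusted p = 0.11). The epithelial marker Krt18 also lost its call with the block (-0.19, edgeR adjusted p = 0.13). Of the 35 pathway genes not tested, 19 had no count, and others were left out by the minimum of 500 summed counts.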
